A study of Mus musculus with 34 samples.

Results

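Oxidative phosphorylation turns the energy of reduced carriers into ATP at the inner mitochondrial membrane. Complexes I to IV pass electrons to oxygen, complexes I, III and IV pump protons, and complex V, the ATP synthase, lets the protons back in. Most of the subunits are made from nuclear genes and imported, while a small core set is encoded by the mitochondrial genome itself, on chromosome M, so that each complex except complex II is built from both genomes. MCs store proteases and mediators in granules, and smooth muscle cells and pericytes wrap blood vessels. The genes described here were all row names of the count tables that begin with mt-Nd, mt-Co, mt-Cytb, mt-Atp, Ndufa, Ndufb, Ndufc, Ndufs, Ndufv, Sdha to Sdhd, Uqcr, Cox4 to Cox8 or Atp5, without Ndufa4l2 and Cox4i2. This gave 13 mitochondrially encoded and 94 nuclear members among 25853 gene names. The nuclear members comprise 81 subunits, 11 assembly factors (Ndufaf and Sdhaf genes) and 2 genes taken in by name, Atp5s and Atp5sl.

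Single-cell transcriptomes came from ear skin. CD45+Lin−YFP+ MCs were sorted from 7-week-old male Tln1ΔMC mice, which carry Mcpt5-Cre, floxed Tln1 alleles and a Rosa26 YFP reporter, and from littermate controls (WT) with Mcpt5-Cre, the same reporter and intact Tln1. Each genotype had 3 mice, and both groups of animals thus carry Cre and YFP, with Cre driven by the promoter of the connective tissue MC protease Mcpt5. CD45−GFP+ cells of Myh11-GFP skin formed 4 libraries that were handled as 1 sample, because the number of mice was not stated. After a minimum of 1000 transcripts per cell, 338, 294 and 272 WT cells, 285, 354 and 934 Tln1ΔMC cells and 330 GFP+ cells remained. Levels are transcripts summed over the cells of a mouse, per 1000000 transcripts outside genes named Gm plus a digit (written CPM below), since these predicted genes took 14.2% to 58.01% of the transcripts of a mouse.

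The labels were checked against markers. The 10 MC markers summed to between 66973 and 89855 CPM in the 6 mice and to 48.6 in the GFP+ cells, while Myh11 reached 1787 CPM in GFP+ cells and at most 4.29 in a mouse. Pericyte markers (13720 CPM) and fibroblast markers (18737) were also high in the GFP+ cells, so this sort held more than vascular smooth muscle. Tln1 itself stood at 450.8, 592 and 671 CPM in WT and at 556.5, 433.1 and 363.1 in Tln1ΔMC mice (log2 difference −0.34 ± 0.23, SE; adjusted p = 0.879, limma). The groups overlapped. Transcripts were counted near the 3′ end, and whether the counted part lies in the deleted stretch was not stated, so this gene checks nothing here. Fibroblast markers summed to 2005, 8266 and 5407 CPM in WT and to 1051, 197 and 97.6 in Tln1ΔMC mice. Every WT mouse was thus above every Tln1ΔMC mouse. Their part in the values below was followed by keeping only cells led by MC markers. Such cells were 86.4%, 91.2% and 94.1% of the cells in WT and 95.4%, 96.6% and 98.3% in Tln1ΔMC mice. All cells of the MC sort are called MCs here, whereas the paper excluded a very small subset with macrophage features.

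Mitochondrially encoded transcripts made up a large share of the MC transcriptome in both genotypes. The 13 members together took 6.50%, 8.00% and 7.62% of the transcripts outside Gm genes in the WT mice and 6.12%, 7.36% and 7.39% in the Tln1ΔMC mice. The nuclear members took 0.693%, 0.813% and 0.658% in WT and 0.566%, 0.523% and 0.798% in Tln1ΔMC mice, so the mitochondrial genome supplied 9.26 to 14.1 transcripts for each nuclear one. In the single cell the mitochondrial share varied widely. Its median lay between 5.91% and 7.91% in the 6 mice, and the 5th and 95th percentiles of cells spanned 3.001% to 15.4% in WT mouse 1 and 3.53% to 12.5% in Tln1ΔMC mouse 3.

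**Figure D1:**
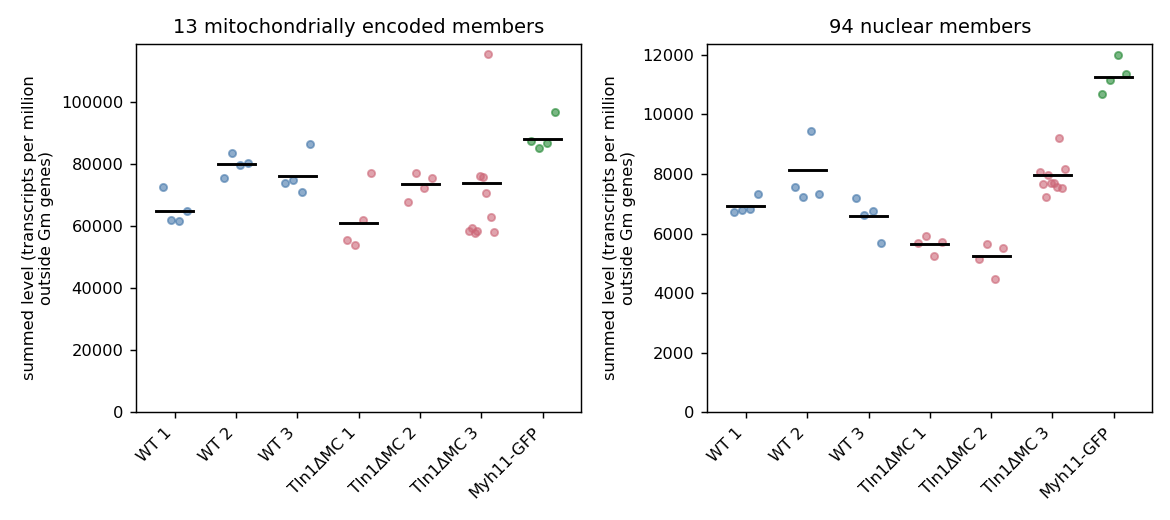
Summed level of the 13 mitochondrially encoded (left) and 94 nuclear members (right), in CPM; each point is 1 library, and the bar is the value of the mouse or, for Myh11-GFP, of the 4 libraries summed. All 4 GFP+ libraries sit above the 6 mouse bars in both panels, and 1 library of Tln1ΔMC mouse 3 reaches 115732 in the left panel.

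The question whether loss of talin-1, the adaptor that links integrins to actin, changed this gene set was asked over the 6 mice. No member passed the test. The summed mitochondrially encoded level was 73758 ± 7791 CPM in WT and 69563 ± 7253 in Tln1ΔMC mice (SD, n = 3 each), a ratio of 0.943. The summed nuclear level was 7213 ± 812 in WT and 6291 ± 1479 in Tln1ΔMC mice, a ratio of 0.872. Tln1ΔMC mice 1 and 2, at 5661 and 5232 CPM, were below all WT mice (6930, 8129 and 6579), whereas Tln1ΔMC mouse 3, at 7981, was above 2 of them, and the groups overlapped. Fewer transcripts of a gene per cell and a greater share of other transcripts cannot be told apart in such relative levels.

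Of the members 97 had at least 10 transcripts in at least 3 mice and were tested. With limma on log2(level + 1) and Benjamini-Hochberg adjustment over all 8601 genes, 0 members passed 0.05, and 0 of all genes did (0%). At an unadjusted p under 0.05 there were 2 members of 97, against 5.78% of all genes. The fitted difference was below 0 for 80 of the 97 members, against 53.7% of all genes, and the median member stood at −0.18 on the log2 scale against −0.03 over all genes. Among nuclear subunits, 64 of 75 were fitted below 0: 31 of 37 in complex I, 3 of 4 in complex II, 7 of 8 in complex III, 8 of 11 in complex IV and all 15 in complex V. Of the mitochondrially encoded members, 10 of 13 were below 0, with a median of −0.11. These directions depend on the scaling. With Gm genes counted in the total, the median of all genes moved from −0.03 to 0.18 and 39 of 97 members were below 0, with a median of 0.04, which is still under that of all genes.

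**Figure D2:**
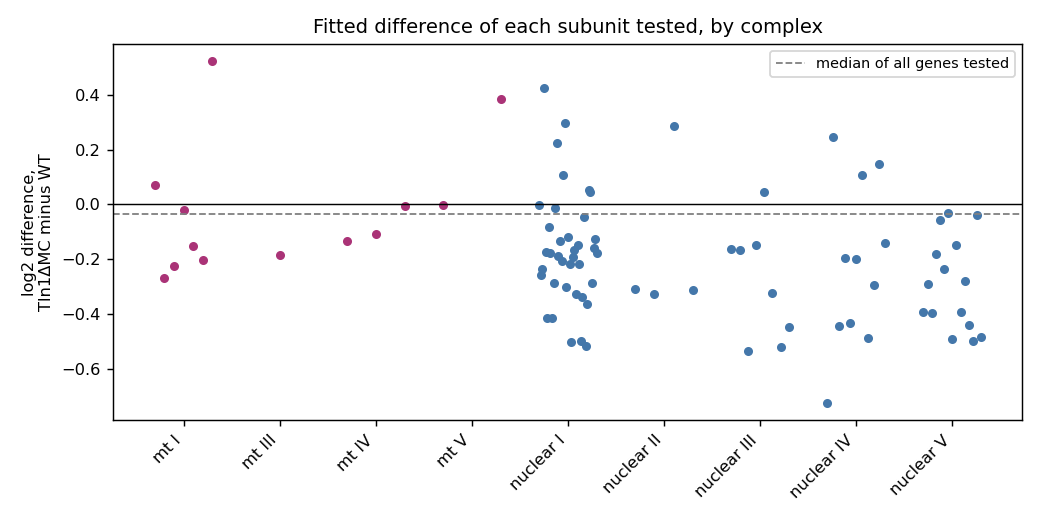
Fitted log2 difference, Tln1ΔMC minus WT, of each subunit tested, grouped by complex and by genome (mt, mitochondrial); the dashed line is the median of all 8601 genes. Of the 75 nuclear subunits 64 lie below 0, with all 15 of complex V among them, and 0 passed the adjusted threshold.

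The member with the smallest p was Cox4i1, the widely expressed isoform of the regulatory subunit IV of cytochrome c oxidase (chr8:120668222-120674207 in GRCm38). Its level was 194.2, 221.7 and 171.7 CPM in WT and 80.8, 106.97 and 187.4 in Tln1ΔMC mice. Tln1ΔMC mouse 3 lay inside the WT range, and the log2 difference of −0.72 ± 0.29 (SE) had an adjusted p of 0.855 in limma. Cox7a2l, which joins complexes III and IV into supercomplexes, was at 151.4, 197.3 and 165.9 in WT and at 112.8, 106.1 and 148.5 in Tln1ΔMC mice. Here the groups did not overlap, but with 3 against 3 the exact two-sided permutation test cannot go below p = 0.1, and the adjusted p in limma was 0.859. The other 6 of the 8 smallest p-values belonged to mt-Nd6 (log2 difference 0.52), the complex I subunits Ndufs4 (−0.52) and Ndufs1 (−0.50), the complex II assembly factor Sdhaf2 (−0.56), and the complex V subunits Atp5a1 (−0.39) and Atp5o (−0.48), each with an adjusted p of 0.863. Over the tested members, every Tln1ΔMC mouse was below every WT mouse for 3 (6.31% of all genes) and above for 1, mt-Nd6 (5.34% of all genes).

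The libraries fell into sets that can be seen in the data, and each Tln1ΔMC mouse belonged to another set, so spread among these mice and among sets cannot be told apart. In each library 1 set of 96 barcodes held most of the transcripts. The other 96 in the tables, called unused here, held 1.4% to 6.0% of its transcripts. They also held 0 to 2 of the cells kept in a library. In these unused barcodes the predicted gene Gm10800 took 19.4% to 23.6% in the libraries of WT mouse 1 and Tln1ΔMC mouse 1, 38.8% to 44.2% in those of WT mice 2 and 3 and Tln1ΔMC mouse 2, and 3.1% to 7.3% in those of Tln1ΔMC mouse 3, with no overlap. The labels name no batch, and Tln1ΔMC mouse 3 stood alone, so that its genotype and its set cannot be told apart. Within the first set the nuclear level of the Tln1ΔMC mouse was 0.817 times that of its WT counterpart, and within the second 0.711 times the mean of its 2 WT counterparts. The mitochondrially encoded level was 0.941 and 0.942 times. These ratios depend on the scaling. With Gm genes in the total the nuclear ratios were 0.935 and 0.575, and the mitochondrially encoded ones 1.077 and 0.773. With TMM scaling they were 0.864 and 0.740 (nuclear) and 0.996 and 0.981 (mitochondrially encoded). Of the 97 members 60 were lower in the Tln1ΔMC mouse than in each WT mouse of its set in both sets, against 26% of all genes, and 3 were higher, against 15.3%. The lower ones were nuclear: 59 of 84 nuclear members against 1 of 13 mitochondrially encoded ones. With cells led by MC markers only, 47 members were lower in both sets, against 24.4% of all genes. Such members numbered 46 with Gm genes in the total, against 22% of all genes, and 48 with TMM scaling, against 21.3%. With the set as a block in limma 22 of 97 members had an unadjusted p under 0.05, against 10.1% of all genes, and 0 members and 4 of all genes passed the adjusted threshold, at a smallest adjusted p of 0.189 among the members. Without Tln1ΔMC mouse 3, 20 of 93 members had an unadjusted p under 0.05, against 8.69% of all genes, and 0 passed. This count rested on which mouse was left out: it was 1 of 97 without Tln1ΔMC mouse 1, 1 of 96 without Tln1ΔMC mouse 2, 7 of 93 without WT mouse 1, 0 of 94 without WT mouse 2 and 4 of 97 without WT mouse 3.

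Among the mitochondrially encoded members, which all lie on chromosome M, levels differed widely. mt-Co1, the catalytic subunit of cytochrome c oxidase, was at 15310, 15990 and 14503 CPM in WT and 12884, 15782 and 13199 in Tln1ΔMC mice. mt-Atp6, the proton channel subunit of ATP synthase, was at 8343 to 14226 and mt-Co2, which receives electrons from cytochrome c, at 8322 to 11158, and these ranges overlapped. mt-Co1 was above mt-Atp6 in 5 of the 6 mice, and Tln1ΔMC mouse 3 had the reverse order. The membrane arm subunits of complex I were at 4437 to 7965 for mt-Nd2, 5148 to 7255 for mt-Nd4, 4665 to 6784 for mt-Nd1 and 3895 to 5767 for mt-Nd5, and their ranges overlapped. mt-Cytb, the core of complex III, was at 3731 to 6033 and mt-Co3 at 3475 to 5237. Lower still were mt-Atp8, mt-Nd4l and mt-Nd3, between 668 and 2255. mt-Nd6, the one member on the opposite strand (chrM:13552-14070 in GRCm38), was lowest at 57.8, 47.1 and 57.2 in WT and 60.2, 103.6 and 75.3 in Tln1ΔMC mice. Its 3 Tln1ΔMC values lay above all WT values, while no test passed the threshold. mt-Atp8 (chrM:7766-7969) and mt-Atp6 (chrM:7927-8607) overlap on the genome and share 1 RNA, so their split depends on where reads were placed.

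**Figure D3:**
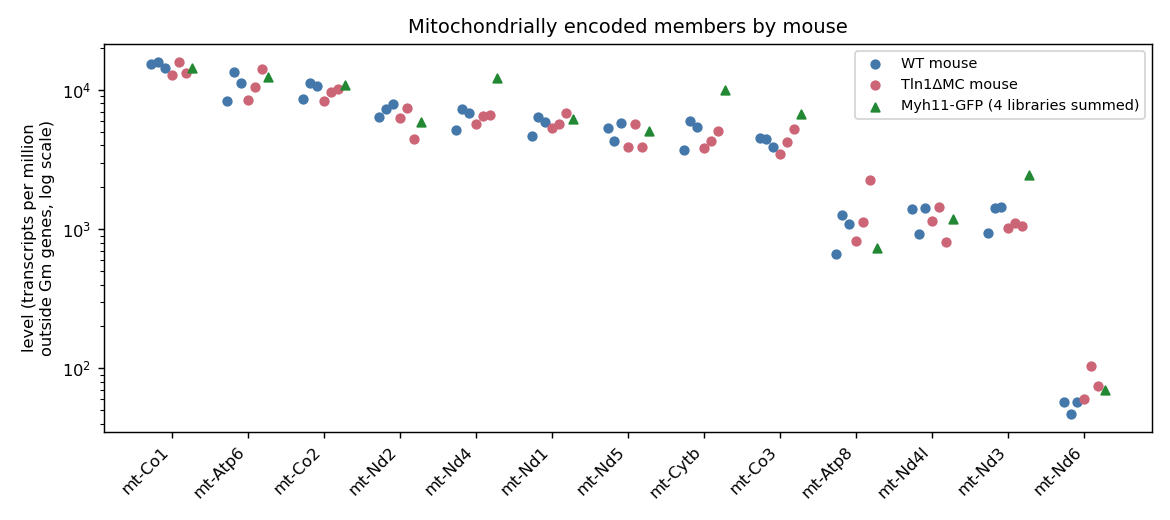
Level of each mitochondrially encoded member in the 6 mice and in the summed GFP+ cells (triangles), in CPM on a log axis. mt-Nd6 is lowest in all 6 mice, and mt-Co1 is highest in all but Tln1ΔMC mouse 3; mt-Nd4, mt-Cytb, mt-Co3 and mt-Nd3 in GFP+ cells lie above all 6 mice.

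The make-up of the mitochondrial transcripts stood apart in Tln1ΔMC mouse 3, the only mouse of its set. As a share of the 13 members, mt-Atp8 was 1.03% to 1.59% in WT mice and in Tln1ΔMC mice 1 and 2 but 3.05% in Tln1ΔMC mouse 3, whose 10 libraries spanned 2.21% to 4.18% and overlapped no other MC library (0.881% to 1.80%). mt-Nd2 was 9.06% to 10.5% in the same 5 mice and 6.00% in Tln1ΔMC mouse 3, with its libraries at 5.11% to 6.45% against 8.40% to 12.7% in the others. Tln1ΔMC mouse 3 also held a library of 93 cells with 115732 CPM mitochondrially encoded transcripts, against 57691 to 76116 in its other 9 libraries. A single cell of 93327 transcripts gave 43.9% of that library's mitochondrially encoded transcripts, and without this cell the library stood at 72292. The top 5 cells together gave 68.3%, and without these 5 it stood at 84606, again above the other libraries. The libraries of this mouse were not uniform. mt-Nd3 was at 238 to 610 CPM in libraries 1 to 4, 1249 to 2135 in libraries 5 to 8, 1011 in library 9 and 528 in library 10. The mitochondrially encoded sum of the mouse was 1.003 times the WT mean with all libraries and 0.795 times with the first 4.

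The nuclear subunits were far lower. In complex I the highest were Ndufa12 (111.5 to 225.7 CPM over the 6 mice), Ndufa6 (67.9 to 159.3) and Ndufb4 (60.3 to 145.6), all accessory subunits. In complex II, which oxidizes succinate, they were the flavoprotein Sdha (56.9 to 88.7), the iron-sulfur subunit Sdhb (32.3 to 80.6) and the membrane anchor Sdhd (24.3 to 68.9). In complex III the small subunits Uqcrq (71.8 to 144.7), Uqcrh (60.3 to 121.5) and Uqcrb (37.2 to 97.7) led. In complex IV these were Cox8a (268.1 to 439.5), Cox6a1 (183.4 to 268.6) and Cox7c (145.9 to 224.1). In complex V the catalytic β subunit Atp5b (218.2 to 361.8), the α subunit Atp5a1 (228.4 to 386.1) and the peripheral stalk subunit Atp5f1 (146.9 to 243.2) were highest. Uqcrh stood at 117.9, 108.1 and 110.1 in WT and at 64.1, 60.3 and 121.5 in Tln1ΔMC mice, and Atp5o, a stalk subunit, at 80.9, 84.7 and 84.4 against 46.1, 53.5 and 84.1. In both genes Tln1ΔMC mice 1 and 2 were below the WT mice and Tln1ΔMC mouse 3 was not below all of them. Atp5g1, Atp5g2 and Atp5g3 encode the same mature c-ring protein. They were at 116.3 to 164.1, 93.4 to 220 and 142.3 to 241.6 CPM, so the 3 overlapped in MCs.

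The GFP+ sample of Myh11-GFP skin held more nuclear oxidative phosphorylation transcripts than MCs. The 4 libraries were at 10695, 11170, 11991 and 11371 CPM, all above the highest mouse (8129), and their sum was 1.67 times the mean of the 6 mice. The comparison is 1 sample against 6 mice in separate experiments, so cell type and experiment cannot be told apart and no test was made. Of 93 members that could be compared, 29 were at least 2-fold higher and above all 6 mice, against 22.5% of all genes, and 0 were 2-fold lower and below all mice, against 21.1%. With Gm genes in the total 59 of 92 members were higher, against 35.2% of all genes, and 0 lower, against 12.8%. All 4 libraries lay above the 6 mice for 50 of the 93, against 24.2% of all genes, and below for 0, against 23.4%. By complex, the median ratio of nuclear subunits was 1.85 in complex I (16 of 37 called), 1.61 in complex II (1 of 4), 1.70 in complex III (2 of 8), 1.98 in complex IV (6 of 12) and 1.59 in complex V (2 of 15), beside 0.968 over all 7659 genes compared. Of the assembly factors among the members, 0 of the 4 compared were called, at a median ratio of 0.839.

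After the muscle isoform Cox6a2, described below, large called ratios were found in complexes I, II and IV. Cox6c, a small complex IV subunit, was at 75.6 to 155.3 CPM in the mice and at 413.8, 487.5, 422.2 and 460.5 in the GFP+ libraries, a ratio of 3.99. Sdhc, a membrane anchor of complex II, was at 18.6 to 52.5 in mice and 119.5 to 152.5 in GFP+ libraries, a ratio of 3.63. Ndufa5 (3.21) and Ndufb9 (3.13) are accessory subunits of complex I and also had all 4 libraries above the mice. Cox4i1 (2.22) and Atp5g3 (2.29) were called as well, while Atp5g1 (1.18) and Atp5g2 (1.47) were not, so in GFP+ cells Atp5g3, at 414.7 CPM, led its family. Some members went the other way without being called. Ndufa4, named for complex I and counted with it here, though now placed in complex IV, was at 32.3 to 68.9 in mice and 38.9 in GFP+ cells. Its paralog Ndufa4l2, which was left out of the members, was at 0 to 12.9 in mice and 303.5 in GFP+ cells, and Cox4i2 was at 0 to 1.43 and 6.94.

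**Figure D4:**
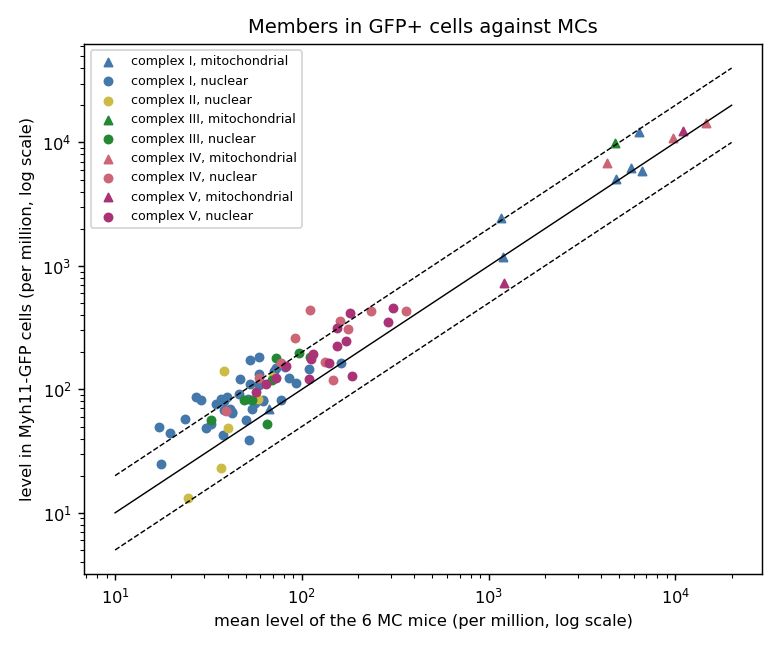
Level of the members in GFP+ cells against the mean of the 6 MC mice, both in CPM on log axes, with lines of equality (solid) and 2-fold (dashed); Cox6a2, with a mean of 0.269 in mice, is off the plot. Nuclear subunits (circles) lie mostly above equality, and mitochondrially encoded members (triangles) mostly near it.

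Cytochrome c oxidase has tissue isoforms, and these separated a few of the GFP+ cells. Cox6a2, Cox7a1 and Cox8b are the heart and skeletal muscle isoforms whose widely expressed partners are Cox6a1, Cox7a2 and Cox8a. Regulatory proteins such as NRF1 and the ETS factor GABP are known to bind promoters of many respiratory genes. The RefSeq promoters (GRCm38.p6, 250 bases before to 50 after the start) of the widely expressed Cox6a1 and Cox8a and of the muscle isoform Cox8b are shown as examples. Capitals mark GCGC and TGCGC with any 1 base between them (NRF1-like) or CCGGAAG (ETS-like), on either strand. The widely expressed Cox7a2 and the muscle isoform Cox7a1, not shown, each held 0 matches of either kind. Cox6a2 had no promoter to search, so the letters do not separate the 2 kinds of isoform.
Cox6a1: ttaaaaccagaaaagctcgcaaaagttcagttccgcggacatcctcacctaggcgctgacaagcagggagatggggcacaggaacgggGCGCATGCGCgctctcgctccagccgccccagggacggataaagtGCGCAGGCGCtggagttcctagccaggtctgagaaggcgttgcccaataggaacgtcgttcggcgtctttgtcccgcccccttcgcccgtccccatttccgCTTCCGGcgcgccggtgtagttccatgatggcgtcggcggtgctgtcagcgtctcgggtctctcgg
Cox8a: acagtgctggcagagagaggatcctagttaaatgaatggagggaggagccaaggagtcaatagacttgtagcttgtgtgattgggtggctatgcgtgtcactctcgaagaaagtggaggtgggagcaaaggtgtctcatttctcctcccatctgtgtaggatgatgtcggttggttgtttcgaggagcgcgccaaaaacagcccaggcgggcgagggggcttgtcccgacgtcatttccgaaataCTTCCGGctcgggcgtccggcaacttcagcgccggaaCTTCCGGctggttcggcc
Cox8b: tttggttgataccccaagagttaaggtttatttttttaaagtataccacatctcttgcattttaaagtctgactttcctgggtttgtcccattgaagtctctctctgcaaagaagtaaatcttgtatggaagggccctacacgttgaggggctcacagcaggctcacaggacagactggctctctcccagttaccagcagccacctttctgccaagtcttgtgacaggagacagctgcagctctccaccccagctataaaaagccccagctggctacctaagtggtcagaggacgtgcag
Cox6a1 lies at chr5:115348909-115349208 (minus strand), Cox8a at chr19:7217567-7217866 (minus strand) and Cox8b at chr7:140900397-140900696 (minus strand). The NRF1-like letters stood in 21 of the 80 nuclear members with a promoter (26.2%), against 4.68% of 27025 promoters, and the ETS-like letters in 20 of 80 (25.0%), against 9.08%. Among the 20 members called higher in GFP+ cells that had a promoter, 5 held the NRF1-like and 4 the ETS-like letters. Both kinds of letters are rich in G and C, and the background promoters were not matched to the members for GC content. A match is a description of letters, not of binding.

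Cox6a2 was found in 25 of 330 GFP+ cells (7.58%, exact binomial 95% interval 4.96% to 11.0%) and in 5 of 2477 MCs (0.202%). Thinned to 1000 UMIs per cell, the shares were 4.56% and 0%. Its level was 36.1 CPM in GFP+ cells (Poisson interval 26.96 to 47.3) and rested on 5 transcripts in all MCs (0.505 CPM). Cox8b was found in 5 GFP+ cells and in 0 of 2477 MCs, which allows a share of cells with a UMI of up to 0.121%. It was at 4.86 CPM in GFP+ cells (Poisson interval 1.95 to 10.0), and 3 counts over all MCs would be 0.303 CPM. These intervals and floors cover counting error only. Cox7a1 was found in 11 GFP+ cells (3.33%) and 8 MCs (0.323%). The partners were widespread: Cox6a1 in 69.1% of GFP+ cells and 48.9% of MCs, Cox8a in 67.3% and 61.4%, and Cox7a2 in 36.1% and 19.7%. Median depths were 4516 and 5018 UMIs with Gm genes counted. Gm genes took 18.6% of the transcripts in GFP+ cells and 14.2% to 58.01% in a mouse. The shares of cells, thinned or not, were therefore not taken at equal depth outside Gm genes. The mice differed in these shares: Cox6a1 was found in 33.7% to 65.8% of the cells of a mouse, Cox7a2 in 9.56% to 31.8% and Cox8a in 42.9% to 75.8%, with WT mouse 2 (71.4%) and Tln1ΔMC mouse 3 above the GFP+ cells for Cox8a. The testis isoforms Cox6b2, Cox7b2 and Cox8c were at 6.25, 0.694 and 1.39 CPM in GFP+ cells and at no more than 7.26, 0.871 and 1.70 in any mouse, while their partners Cox6b1 and Cox7b were at 168.1 and 164.6 in GFP+ cells.

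The muscle isoform transcripts were concentrated in cells with markers of striated muscle. Of the 330 GFP+ cells 24 held 10 or more UMIs of 10 striated muscle markers, mostly Actc1 (433 UMIs) and Tnnt2 (328 UMIs), and 0 of 2477 MCs did. These 24 cells carried 50 of the 52 Cox6a2 UMIs and 6 of the 7 Cox8b UMIs, but 5 of the 12 Cox7a1 UMIs and 36 of the 622 Cox6a1 UMIs. Cox6a2 was at 525.8 CPM in them and at 1.49 in the other 306. Mitochondrially encoded transcripts took 10.0% to 52.4% of a cell (median 17.8%), against 3.23% to 33.3% (median 8.55%) in the others. The 24 fell into 2 ranges. In 10 cells, 2 to 4 in each library, the share was 37.7% to 52.4%, Myh11 was at 0 and depth was 1385 to 3066 transcripts. They held 48 UMIs of Mb, 38 of Myl2, 2 of Ckm, 0 of Acta1 and 7 of the pericyte marker Rgs5. In each GFP+ library 2 kept cells had barcodes of the unused set. The 2 sets are the first and the last 96 barcodes. The 10 included the last 2 cells listed for libraries 13 and 15 and the first 2 for libraries 14 and 16. These may be the cells with unused barcodes, but how many of the 10 have such barcodes was not counted. In 14 cells the share was 10.0% to 18.8%, Myh11 was at 2663 CPM and depth was 3172 to 9251 transcripts. These 14 held 33 UMIs of Mb, 23 of Myl2, 3 of Ckm, 0 of Acta1 and 903 of Rgs5.

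**Figure D5:**
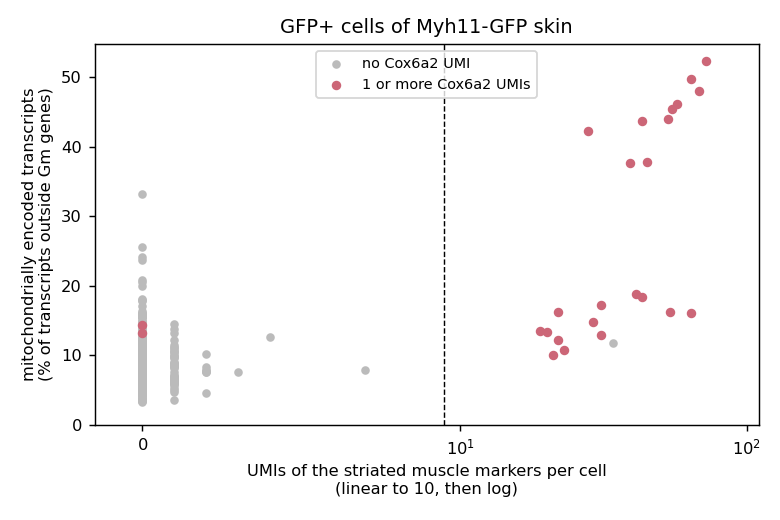
Mitochondrially encoded transcripts of each of the 330 GFP+ cells, in % of transcripts outside Gm genes, against its UMIs of the 10 striated muscle markers (linear to 10, then log); red, cells with a Cox6a2 UMI; dashed line, the minimum of 10. Of the 24 cells to the right, 23 hold Cox6a2, and 10 of the 24 lie at 37.7% or higher.

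These cells weighed on the mitochondrially encoded level of the GFP+ sample but little on the nuclear one. With all cells the 13 members summed to 87629, 85247, 86729 and 96896 CPM in the 4 libraries, above the highest mouse (80039), and without the 24 cells to 80849, 78654, 78736 and 83674. The nuclear sum went from 11258 to 11059. Of the 29 members called higher 22 were called without these cells too. The 7 that were lost included both mitochondrially encoded ones, Cox6a2, and 4 nuclear members just under 2-fold, Ndufa1 (1.98), Ndufa8 (1.97), Ndufc2 (1.95) and Ndufv2 (1.997), while Ndufb11 (2.01) was gained. mt-Cytb was at 9957 CPM, 2.11 times the MC mean, with all cells and at 1.77 times without the 24. For mt-Nd3, at 2449, the ratios were 2.10 and 1.97, and for mt-Nd4, at 12204, 1.92 and 1.53. mt-Nd4 was at 47172 CPM in the 24 cells against 6348 in MCs, whereas mt-Co1 was at 20706 against 14611, so the mitochondrially encoded members were not raised in 1 ratio.

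Other genes of the pathway were tested from lists. In Tln1ΔMC against WT 0 of 24 assembly factors outside the rule, 0 of 14 carriers and coupled factors, 0 of 16 citrate cycle and pyruvate dehydrogenase genes, 0 of 15 glycolysis genes, 0 of 5 regulators and 0 of 68 mitochondrial ribosomal protein genes passed. In GFP+ cells against MCs the background was 22.5% of all genes called higher and 21.1% called lower. The 16 glycolysis genes summed to 3640 to 4761 CPM in the mice and to 1880 to 1960 in the GFP+ libraries, and 8 of 15 were called lower and 0 higher: the glucose transporter Slc2a1, Hk1, Pfkm, Pfkp, Tpi1, Gapdh, Pkm and Ldha. Of 16 citrate cycle and pyruvate dehydrogenase genes, 3 were called higher (Idh3a, Idh3b and Sucla2), a share near the background, and 1 lower (Suclg2). Of 13 carriers 6 were called higher, among them cytochrome c1 (Cyc1), the ADP/ATP carrier Slc25a4 and the outer membrane channel Vdac1. Assembly factors outside the rule had 0 of 15 called higher and 3 lower (Cox15, Uqcc1 and Atpaf1), the latter near the background, and mitochondrial ribosomal protein genes had 6 of 53 higher and 1 lower, both below it.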

How the data were processed

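mCEL-Seq2 libraries, 30 of MCs from 3 WT and 3 Tln1ΔMC mice and 4 of GFP+ cells, supplied the measurements. Per the paper's methods and the submitters' processing notes, the authors demultiplexed with bcl2fastq 2.17.1.14, aligned with BWA 0.6.2-r126 to a mm10 transcriptome in sense direction, discarded reads with several best places, which can lower members with near-identical copies, merged loci overlapping by more than 75% and turned counts of 6-base UMIs into transcripts by binomial statistics. The deposited tables hold these transcript counts, unscaled. All 34 tables gave whole UMIs back (within 1e-06 of 4096 possible), and all libraries share 1 list of barcodes, which are well indices. The number in a title was taken as the mouse.

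Cells over 1000 transcripts and at most 2% Kcnq1ot1 were kept (the latter removed 0 cells), and no doublet caller was run, since doublets were gated out of the MC sort per the methods; for the GFP+ sort this is not stated. Mice held about 1412800 to 6104250 transcripts and GFP+ cells 1770250, which limits members of low level. The log2 sums of each mouse (pseudocount 1) entered a limma-trend fit (limma 3.58.1, R 4.3.3). This was tested on simulated data for this comparison. Of 200 changed genes among 8601 it recovered 5.0% at 1.5-fold, 53.5% at 2-fold and 92.5% at 4-fold. The dispersion of 0.02 was set and not estimated from these mice, so a larger spread would give lower shares. GFP+ cells were compared by size only, among genes with at least 10 transcripts and 20 CPM in either. Named genes were the 13 mitochondrially encoded members, the 3 highest nuclear subunits per complex, the 8 smallest p-values, the 6 largest called ratios and the tissue isoforms. Members and lists were chosen with earlier results of these data known. All members were placed by GENCODE M21 (GRCm38), and 80 of 94 nuclear members matched a RefSeq promoter. The 2 barcode lists were not used. A result that falls under the rule for named genes is not reported here.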

Additional observations from a re-analysis of the deposited data

Results flagged for a closer look

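In library 8 of Tln1ΔMC mouse 3 the mitochondrially encoded sum was 115732 CPM, beyond a gap from the other 9 libraries (57691 to 76116) that exceeded Dixon's critical value, and the nuclear sum of the same library, 9215 CPM, stood apart from 7239 to 8169. In WT mouse 2 the nuclear sum of library 3 was 9459 CPM against 7232 to 7574 in its other 3 libraries, and this library also had the highest share of macrophage marker transcripts of that mouse (0.68% against 0.023% to 0.14%). Chance alone gives such a mark to about 5% of groups, and 3 of 20 groups of libraries were marked.

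The barcodes outside the set used in each library held 53624 mitochondrially encoded transcripts in all. They made up 90914 to 155190 CPM in the MC libraries and 213120 to 268996 in the GFP+ libraries, above the share in the cells of the same libraries. These sums include kept cells with such barcodes, 0 to 1 in an MC library and 2 in each GFP+ library, so the 2 sides overlap.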

How the results depend on the processing

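The count of members called between genotypes was 0 under each alternative run. All genes called numbered 45 with Gm genes in the total (0 with the main scaling), 4 with the background set as a block and 0 to 15 when 1 mouse was left out: 15 without Tln1ΔMC mouse 1 and 1 without WT mouse 1. With mouse number as a replicate block, 0 genes and 0 members were called; same-numbered mice did not pair (correlations of their deviations 0.16, −0.21 and −0.27). The log2 ratio of the sums became 0.18 (mitochondrially encoded) and 0.12 (nuclear) with Gm genes in the total, and ranged from −0.17 to −0.00017 and from −0.41 to −0.081 when 1 mouse was left out. Some mitochondrially encoded members of small difference changed sign. With TMM mt-Atp6 was at 0.050, mt-Co3 at 0.044 and mt-Nd4 at 0.031. With Gm genes in the total mt-Atp6 was at 0.23, mt-Co1 at 0.093, mt-Co2 at 0.12, mt-Co3 at 0.22, mt-Cytb at 0.043, mt-Nd3 at 0.0011, mt-Nd4 at 0.21, mt-Nd4l at 0.075 and mt-Nd5 at 0.026. mt-Atp6 was at 0.021 without the WT library highest in macrophage markers, 0.012 with cells over 2000 transcripts, 0.0051 with cells over 1000 outside Gm genes, 0.0016 with the background taken off and 0.035 with cells led by MC markers. mt-Co3 was at 0.0051, 0.010 and 0.025 and mt-Nd4 at 0.0018 and 0.014 under such choices of cells. mt-Nd1 was at −0.014 with the first 4 libraries of Tln1ΔMC mouse 3 and −0.065 as a mean over cells, and mt-Nd4l at 0.065 with the set as a block. Leaving out 1 mouse spanned −0.20 to 0.18 for mt-Atp6, −0.025 to 0.70 for mt-Atp8, −0.16 to 0.14 for mt-Co3, −0.063 to 0.17 for mt-Nd1, −0.17 to 0.076 for mt-Nd4 and −0.35 to 0.068 for mt-Nd4l.

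For GFP+ cells against MCs, Gm genes in the total gave log2 ratios of 0.82 (mitochondrially encoded; main 0.30) and 1.23 (nuclear; main 0.74) and 59 of 92 members called higher (35.2% of all genes), and a mean over cells gave 0.47 (mitochondrially encoded). At 1.5-fold 54 of 93 were higher and 2 lower, Sdhaf2 and Sdhaf4, against 29.8% and 29.4% of all genes. Without 1 GFP+ library 26 to 29 were higher and 0 to 1 lower: Sdhaf2 without library 14 and Sdhaf4 without library 16. Thinning to 1000 UMIs gave shares of 4.56% for Cox6a2, 0.608% for Cox7a1, 0.304% for Cox8b, 31.3% for Cox6a1, 10.3% for Cox7a2 and 26.4% for Cox8a. The sets, the library left out, the background, the choice of cells by markers and the cells with striated muscle markers were added after the data had been seen. The planned negative binomial tests (edgeR and DESeq2) were not run. The causes were not tested.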

Other observations

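Mitochondrial ribosomal RNA is transcribed from the same genome but is no member. mt-Rnr1 and mt-Rnr2 together were at 34129, 41456 and 39085 CPM in WT and at 48616, 88008 and 65734 in Tln1ΔMC mice, so that every Tln1ΔMC mouse was above every WT mouse, as for 5.34% of all genes tested and for the member mt-Nd6. The log2 differences were 0.81 ± 0.26 and 0.77 ± 0.31 (SE), with adjusted p-values of 0.803 and 0.855 in limma, and neither passed the threshold. In GFP+ libraries the sum was 61181 to 82460.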
